A study of Mus musculus with 2 samples.

Results

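Cell barcodes in which 2 or more productive heavy chains were assembled are described here, from antigen receptor sequencing of mouse Peyer's patches. A productive heavy chain was an in-frame contig of the immunoglobulin heavy locus (IGH), and chains were counted as distinct when the nucleotides of their CDR3, the joint between V, D and J segments, differed. Of the 6469 barcodes with a productive heavy chain in both libraries, 228 met this rule, namely 145 of 3439 in the Cre+ library and 83 of 3030 in the Cre- library. They are called multi-chain barcodes below, and the 3294 and 2947 barcodes with exactly 1 heavy chain single-chain barcodes.

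Both libraries came from adult female mice with floxed H2-Ab1 (H2-Ab1 fl/fl), the gene of the MHC class II beta chain. The Cre+ mice also carried Villin:Cre, whose promoter is active in intestinal epithelial cells, and the Cre- mice, labelled wild type by the submitters, lacked the recombinase. Leukocytes were enriched by their surface CD45 and pooled over 4 mice per genotype before loading on a droplet controller, so there was 1 library per genotype. The design text writes Cre-negative for both genotypes and the sample labels were followed. No file measures H2-Ab1 itself, and the genotypes rest on the labels alone. The Cre+ library held 12300 contigs and 355258 unique molecular identifiers (UMIs, counts of original transcripts), and the Cre- library 10108 contigs and 355985 UMIs. With 1 pool of mice on each side, the differences below were not tested, and barcodes are not replicates of a genotype. All intervals are exact 95% Clopper-Pearson intervals that cover counting error only.

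A B cell rearranges the heavy locus on both chromosomes but normally makes protein from a single allele, a rule called allelic exclusion. Naive B cells transcribe IgM and IgD from the same rearranged allele, and class switching in Peyer's patches moves that allele to IgA or IgG. Droplet methods can place a pair of cells under the same barcode, and RNA freed from broken cells can enter droplets of other cells. Which of these lay behind a given barcode was not tested. The heavy locus lies on chromosome 12 of GRCm38, with Ighm at 113418826 to 113422730, Ighd at 113407535 to 113416324, Ighg1 at 113326541 to 113330523, Ighg2b at 113304314 to 113307933 and Igha at 113256204 to 113260236.

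The chains that tie multi-chain barcodes to the rest of a library are those that also occurred alone in 2 or more single-chain barcodes, and their CDR3 nucleotides are shown for this reason. Each runs from the codon of the conserved cysteine to that of the conserved tryptophan, and capitals mark the bases between the first and the last 9, where the segments join and the chains differ most. The 5 chains of the Cre+ library and the 2 of the Cre- library were:
IGHV5-17 with IGHJ4, Cre+: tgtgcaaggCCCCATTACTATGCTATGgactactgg
IGHV1-9 with IGHJ2, first form, Cre+: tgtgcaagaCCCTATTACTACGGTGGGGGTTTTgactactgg
IGHV1-9 with IGHJ2, second form, Cre+: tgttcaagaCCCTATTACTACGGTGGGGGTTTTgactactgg
IGHV1-18 with IGHJ1, Cre+: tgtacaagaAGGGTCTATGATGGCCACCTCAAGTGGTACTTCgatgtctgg
IGHV1-12 with IGHJ4, Cre+: tgtgcaagaGAGGGGATGaattactgg
IGHV4-1 with IGHJ3, Cre-: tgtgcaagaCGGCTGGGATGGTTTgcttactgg
IGHV1-12 with IGHJ2, Cre-: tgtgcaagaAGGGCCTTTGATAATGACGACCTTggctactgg

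The first and second IGHV1-9 forms differed by G4T, counted from 1 at the 5′ end of the CDR3. The V genes are annotated on chromosome 12 of the same build, at 113859149 to 113859442 (Ighv5-17), 114583569 to 114583862 (Ighv1-9), 114682632 to 114682925 (Ighv1-18), 114615850 to 114616143 (Ighv1-12) and 113948284 to 113948577 (Ighv4-1).

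Multi-chain barcodes made up 4.22% of heavy-chain barcodes in the Cre+ library (3.57 to 4.94) and 2.74% in the Cre- library (2.19 to 3.38). These intervals did not overlap, but the gap depended on a few chains and on weak ones. With chains of the largest lineage of either library left out, the shares were 3.88% (131 barcodes, 3.26 to 4.59) in Cre+ and 3.06% (80 barcodes, 2.43 to 3.8) in Cre-, with overlapping intervals. With a minimum of 3 UMIs per chain they were 3.47% (111 barcodes, 2.87 to 4.17) and 2.65% (75 barcodes, 2.09 to 3.31), which also overlapped. Exactly 2 heavy chains were found in 135 of the 145 Cre+ barcodes and in 82 of the 83 Cre- barcodes, and the others had 3.

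The leading heavy chain of a barcode by UMIs is called the major and the next the minor chain. In the Cre+ library the major chain had a median of 10 UMIs (range 2 to 40) and the minor chain 5 (2 to 31). In the Cre- library the medians were 12 (4 to 33) and 5 (2 to 18). The minor chain had 5 or more UMIs in 76 Cre+ barcodes (52.4%, 44.0 to 60.8) and 48 Cre- barcodes (57.8%, 46.5 to 68.6). The ratio of minor to major UMIs had a median of 0.444 in Cre+ (interquartile range 0.308 to 0.600) and 0.417 in Cre- (0.300 to 0.567). A ratio of 0.5 or more was reached in 67 of 145 Cre+ barcodes (46.2%, 37.9 to 54.7) and 33 of 83 Cre- barcodes (39.8%, 29.2 to 51.1), with overlapping intervals. Equal UMIs were found in 1 Cre+ and 0 Cre- barcodes.

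**Figure D1:**
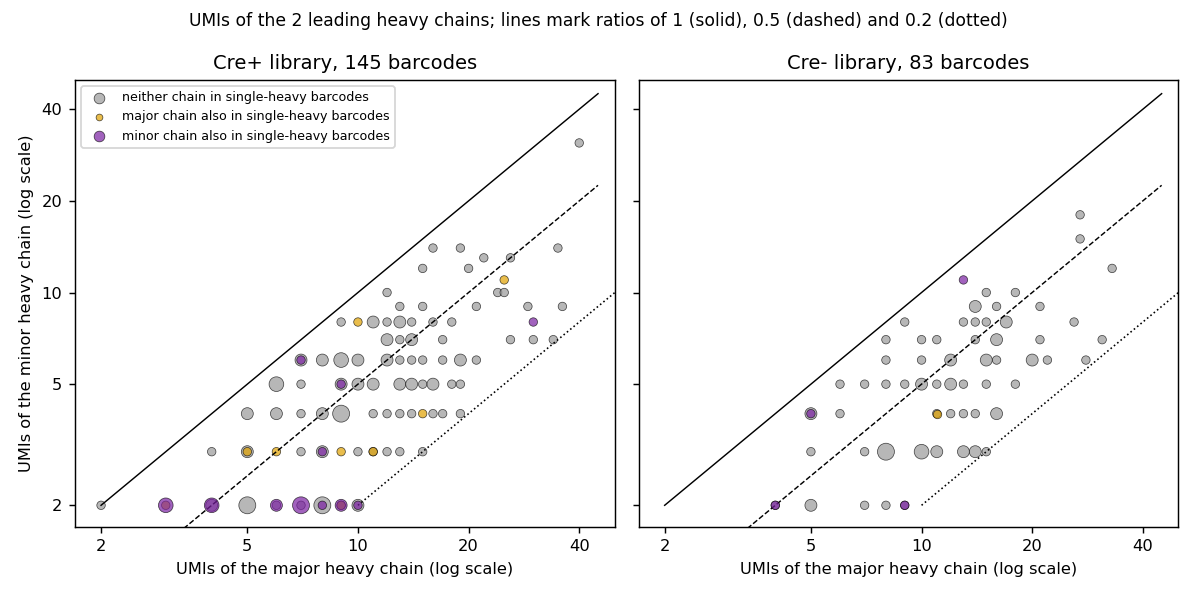
UMIs of the major (horizontal) and the minor heavy chain (vertical) of each multi-chain barcode, both on log scales, for the Cre+ (left) and the Cre- library (right); the area of a point grows with the number of barcodes at that place, and colours show which chain also occurs in single-chain barcodes. No point lies below the dotted line at a ratio of 0.2, and purple points crowd at 2 UMIs in the Cre+ panel.

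The lowest ratio was 0.2 in both libraries, and no minor chain had 1 UMI, whereas 106 of 3294 Cre+ and 82 of 2947 Cre- single-chain barcodes had a heavy chain of 1 UMI. Nonproductive heavy contigs also had a lowest ratio of 0.2 to the leading productive chain of their barcode. Against the leading heavy contig, productive or not, the lowest ratio was 0.0769 in Cre+ and 0.125 in Cre-. The floor was thus seen for contigs called productive or nonproductive, set against the leading productive chain. It was not seen among all heavy contigs set against the leading contig of any kind. Light chains had no such floor, with further chains down to 0.0172 and 0.0182 of the leading light chain. A second heavy chain weaker than 0.2 of the first was therefore not seen in these tables, and a minor chain of 2 UMIs was found with at most 10 UMIs on the major chain in Cre+ and 9 in Cre-. Reads per UMI did not set the chains apart. The medians were 109.7 for major and 107 for minor chains in Cre+, beside 109.3 in single-chain barcodes, and 99.4 and 100.7 in Cre-, beside 99.1.

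Heavy-chain UMIs summed to a median of 15 in multi-chain and 8 in single-chain barcodes of the Cre+ library, and to 17 and 10 in the Cre- library. A sum over more chains is higher by construction, so the light chains are the more independent measure. Their UMIs had medians of 48 (interquartile range 33 to 76) and 30 (18 to 47) in Cre+, and of 63 (45 to 85.5) and 29 (13 to 48) in Cre-. In barcodes with exactly 1 light chain the medians stood closer, at 36.5 in multi-chain and 29 in single-chain barcodes of Cre+ and at 40.5 and 28 in Cre-. In those with 2 or more light chains they were 70 and 52 in Cre+ and 76 and 53 in Cre-.

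When the heavy-chain barcodes of each library were ordered by light-chain UMIs and cut into 4 bins of nearly equal size, the share of multi-chain barcodes was highest in the top bin. In Cre+ it was 1.28% (0.640 to 2.28), 2.56% (1.61 to 3.85), 4.66% (3.35 to 6.29) and 8.37% (6.61 to 10.43) from the lowest to the highest bin. In Cre- it was 0.264% (0.0320 to 0.95), 1.59% (0.822 to 2.75), 1.72% (0.917 to 2.92) and 7.39% (5.63 to 9.49). A second light chain adds to the light-chain UMIs, so this order is not independent of the number of light chains. The top bin began at 48 UMIs in Cre+ and 49 in Cre-, and there the intervals of the libraries overlapped.

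**Figure D2:**
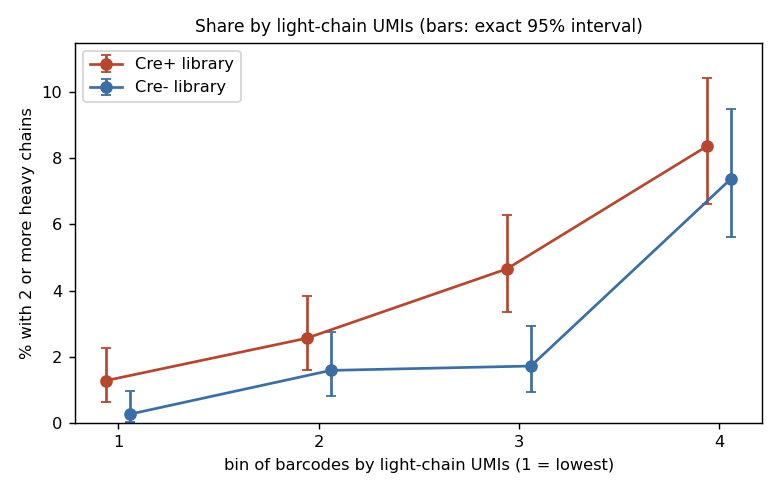
Share of heavy-chain barcodes with 2 or more heavy chains (vertical, %) in 4 bins of barcodes by light-chain UMIs (horizontal, lowest to highest) for both libraries; bars are exact 95% intervals. The top bin stands at 8.37% in Cre+ and 7.39% in Cre-.

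Most multi-chain barcodes joined a pair of unswitched chains, IgM or IgD, the classes that were also most frequent in single-chain barcodes. Among single-chain barcodes with a constant gene, IgM made up 58.8% in Cre+ and 52.5% in Cre-, and IgD 30.1% and 24.6%. IgA was the largest switched class there, at 6.32% and 19.0%. The pairs that these shares alone would give were not calculated. Both leading chains were unswitched in 110 of 145 Cre+ barcodes (75.9%, 68.1 to 82.6) and in 70 of 83 Cre- barcodes (84.3%, 74.7 to 91.4). IgM with IgM was the most frequent pair, in 65 Cre+ barcodes (44.8%, 36.6 to 53.3) and 41 Cre- barcodes (49.4%, 38.2 to 60.6). IgM with IgD followed in 33 (22.8%, 16.2 to 30.4) and 17 (20.5%, 12.4 to 30.8), and IgD with IgD in 12 of each library (8.28% and 14.5%). An unswitched chain stood beside a switched one in 30 Cre+ barcodes (20.7%, 14.4 to 28.2) and 9 Cre- barcodes (10.8%, 5.08 to 19.6), with overlapping intervals. Both chains were switched in 5 and 4. With the largest lineages left out, both leading chains were unswitched in 80.2% of Cre+ (72.3 to 86.6) and 87.5% of Cre- barcodes (78.2 to 93.8).

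IgA, the class secreted into the gut, was the switched class found most often beside an unswitched chain, with IgM in 10 Cre+ and 6 Cre- barcodes and with IgD in 6 and 1. IgG1 stood beside IgM in 5 and beside IgD in 2 Cre+ barcodes. In the Cre- library IgG1 was found in 0 of 167 chains, which allows a share of up to 1.80%. Its share of 0.749% in Cre- single-chain barcodes with a constant gene lies within that limit. IgG2b stood beside IgM in 5 and 2 barcodes and beside IgD in 2 and 0. Pairs of IgA with IgA were found in 1 and 2 barcodes, of IgG2b with IgG2b in 2 and 0, of IgG2b with IgA in 0 and 2, and pairs of IgG1 with IgG1 and of IgG1 with IgA in 1 Cre+ barcode each. In Cre+ multi-chain barcodes, single recurring chains made up much of each switched class. They were 9 of the 20 IgA chains (IGHV5-17), 4 of the 11 IgG2b chains (IGHV1-18) and 5 of the 10 IgG1 chains (IGHV1-9, first form). In Cre+ single-chain barcodes the same chains were 53 of 207 IgA, 1 of 100 IgG2b and 14 of 55 IgG1 chains. In Cre-, 3 of the 13 IgA chains were the IGHV4-1 chain, a smaller part than its 416 of 557 IgA chains in single-chain barcodes.

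**Figure D3:**
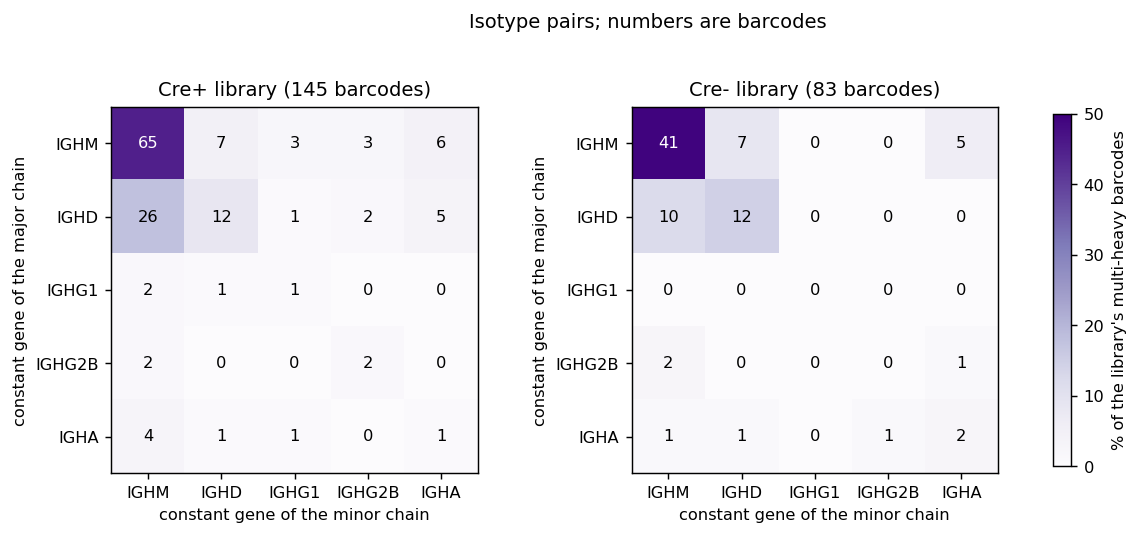
Constant gene of the major (rows) and the minor chain (columns) in multi-chain barcodes of the Cre+ (left) and the Cre- library (right); numbers are barcodes and shade is the share of the library's multi-chain barcodes in %. IGHM with IGHM holds 65 and 41 barcodes, and IGHD over IGHM outnumbers IGHM over IGHD by 26 to 7 in Cre+ and by 10 to 7 in Cre-.

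Switched classes made up 41 of 300 chains of Cre+ multi-chain barcodes (13.7%, 9.99 to 18.1), beside 11.1% of Cre+ single-chain barcodes (10.1 to 12.3). In Cre- they made up 18 of 167 chains (10.8%, 6.51 to 16.5), beside 22.9% of single-chain barcodes (21.4 to 24.4). The Cre- single-chain barcodes include the IgA lineage of IGHV4-1. Outside the largest lineage of each library the shares were 11.2% (7.81 to 15.5) and 9.68% (8.68 to 10.8) in Cre+ and 9.15% (5.21 to 14.6) and 10.2% (9.0 to 11.4) in Cre-, with overlapping intervals in both. Of barcodes that carried an IgA chain, 19 of 226 were multi-chain in Cre+ (8.41%, 5.14 to 12.8) and 11 of 568 in Cre- (1.94%, 0.971 to 3.44). For IgM these shares were 5.78% and 4.10%, for IgD 5.28% and 3.98%, for IgG2b 8.26% and 5.10%, and for IgG1 14.1% (9 of 64, 6.64 to 25) in Cre+ and 0 of 22 in Cre-, which allows up to 13.6%. In 7 of those 9 Cre+ barcodes the IgG1 chain was one of the IGHV1-9 and IGHV1-12 chains shown by sequence. A multi-chain barcode was counted under each class it held, which raises the shares by class by construction. Over all heavy-chain barcodes the shares were 4.22% in Cre+ and 2.74% in Cre-. A constant gene was missing in 0 of 300 Cre+ and 0 of 167 Cre- chains of multi-chain barcodes, which allows up to 1.0% and 1.80%. It was missing in 18 Cre+ (0.546%) and 10 Cre- (0.339%) single-chain barcodes, shares within those limits.

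In barcodes with IgM and IgD, the IgD chain was the major one in 26 of 33 Cre+ barcodes (78.8%, 61.1 to 91.0) and 10 of 17 Cre- barcodes (58.8%, 32.9 to 81.6). In single-chain barcodes the median IgD chain had 8 UMIs in each library, and the median IgM chain 8 in Cre+ and 9 in Cre-. Where a switched chain stood beside an unswitched one, it was the minor chain in 20 of 30 Cre+ barcodes (66.7%, 47.2 to 82.7) and 5 of 9 Cre- barcodes. The 2 leading chains carried the same constant gene in 81 Cre+ barcodes (55.9%) and 55 Cre- barcodes (66.3%).

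A second light chain was far more frequent beside several heavy chains than beside a lone one. At least 2 productive light chains were found in 79 of 145 Cre+ multi-chain barcodes (54.5%, 46.0 to 62.8) and 295 of 3294 single-chain barcodes (8.96%, 8.0 to 9.98). In Cre- they were found in 53 of 83 (63.9%, 52.6 to 74.1) and 220 of 2947 (7.47%, 6.54 to 8.47). The remaining 66 Cre+ and 30 Cre- multi-chain barcodes had exactly 1 light chain, and none lacked a light chain. At least 3 light chains were found in 22 Cre+ multi-chain barcodes (15.2%, 9.76 to 22.1) and 2 Cre- ones (2.41%, 0.293 to 8.43), and these intervals did not overlap. In single-chain barcodes the counts were 7 of 3294 and 5 of 2947.

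**Figure D4:**
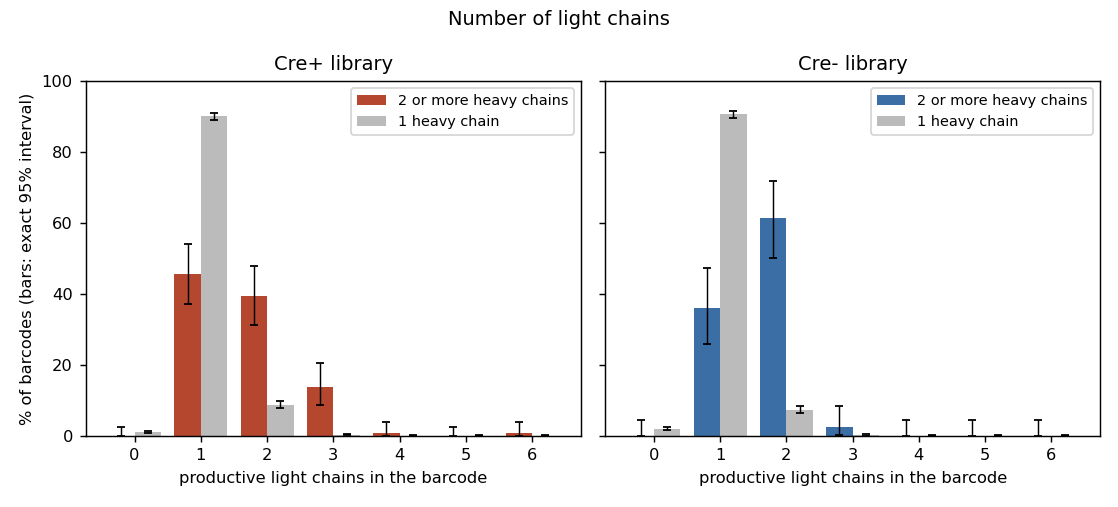
Share of barcodes (vertical, %) by number of productive light chains (horizontal) in multi-chain barcodes (coloured) and single-chain barcodes (grey) of the Cre+ (left) and the Cre- library (right); bars start at 0 and error bars are exact 95% intervals. Exactly 1 light chain is found in 45.5% and 90.1% of Cre+ barcodes and in 36.1% and 90.6% of Cre- barcodes.

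Kappa with kappa was the usual pair of light chains. Among barcodes with exactly 2, kappa with lambda was found in 8 of 57 multi-chain and 46 of 288 single-chain barcodes of Cre+ (14.0% and 16.0%), and in 6 of 51 and 36 of 215 of Cre- (11.8% and 16.7%). The second light chain had a median of 0.554 of the UMIs of the first in multi-chain and 0.492 in single-chain barcodes of Cre+, and of 0.486 in both kinds in Cre-. Across barcodes with 2 or more light chains the heavy and light UMI ratios were weakly related, with a Spearman rho of 0.102 over 79 Cre+ and 0.0166 over 53 Cre- barcodes. These barcodes share a library and their ratios rest on few UMIs. A balanced heavy pair did not go with more light chains in Cre+, where 33 of 67 barcodes with a ratio of 0.5 or more and 46 of 78 others had 2 or more light chains (49.3% and 59.0%). In Cre- the counts were 23 of 33 and 30 of 50 (69.7% and 60.0%), and the intervals overlapped in both libraries.

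The main light chain of a barcode with exactly 1 was often found elsewhere in the library. The same kappa or lambda V gene and CDR3 occurred in another barcode for 60 of 66 Cre+ multi-chain barcodes with 1 light chain (90.9%, 81.3 to 96.6), beside 87.4% of single-chain barcodes with 1 light chain (86.1 to 88.6). In Cre- it did so for 21 of 30 (70.0%, 50.6 to 85.3), beside 87.9% (86.6 to 89.1). The Cre- intervals did not overlap, but the single-chain share includes the IGHV4-1 lineage. Its usual light chain was found in 390 of its 417 single-chain barcodes. The share without this lineage was not calculated.

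Each heavy allele of a diploid cell holds a single V to DJ joint as a rule, which sets a bound on the heavy rearrangements of a cell. At least 3 rearranged heavy contigs, each called productive or nonproductive, were found in 18 Cre+ multi-chain barcodes (12.4%, 7.53 to 18.9) and 3 Cre- ones (3.61%, 0.752 to 10.2). Nonproductive contigs were not compared by CDR3 with the productive chains, so these contigs need not be distinct rearrangements. At least 3 productive kappa chains were found in 17 Cre+ (11.7%) and 1 Cre- (1.20%) multi-chain barcodes, beside 6 Cre+ and 2 Cre- single-chain barcodes. Either was found in 30 Cre+ barcodes (20.7%, 14.4 to 28.2) and 4 Cre- barcodes (4.82%, 1.33 to 11.9), and these intervals did not overlap. The bound given above is for the heavy locus and was not set for kappa chains. A nonproductive heavy contig was found in 9 Cre+ multi-chain barcodes (6.21%, 2.88 to 11.46) and 5.16% of single-chain barcodes, and in 2 (2.41%, 0.293 to 8.43) and 4.38% in Cre-.

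Exactly 3 productive heavy chains were found in 10 Cre+ barcodes and 1 Cre- barcode. Of the 10, 8 had 2 or more light chains and 6 had 3 or more. The fullest held an IGHV1-15 chain of IgM with 12 UMIs, an IGHV5-17 chain of IgD and an IGHV1-72 chain of IgM with 6 UMIs each, and 6 light chains. This IGHV5-17 chain was not that of the largest Cre+ lineage. The Cre- barcode held an IgM, an IgA and an IgG2b chain with 9, 5 and 3 UMIs and 2 light chains.

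The next barcodes were picked for the most UMIs on the minor chain, so these minor chains lie above the median of 5 by choice. In the Cre+ library an IGHV3-6 chain of IgG2b with 40 UMIs stood beside an IGHV2-2 chain of IgM with 31 UMIs, with an IGKV8-28 chain of 85 and an IGLV3 chain of 15 UMIs. In the Cre- library an IGHV2-4 chain with 27 UMIs stood beside an IGHV1-15 chain with 18 UMIs, both IgM, with an IGKV4-72 chain of 23 and an IGKV2-109 chain of 18 UMIs. None of these 4 heavy chains was found in a single-chain barcode, as was so for the chains of most multi-chain barcodes (116 of 145 in Cre+ and 78 of 83 in Cre-). The CDR3 nucleotides of the 4, shown for the strength of the minor chains, differ in length within each pair (capitals as above):
IGHV3-6 with IGHJ3, Cre+, 40 UMIs: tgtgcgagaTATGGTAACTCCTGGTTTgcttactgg
IGHV2-2 with IGHJ4, Cre+, 31 UMIs: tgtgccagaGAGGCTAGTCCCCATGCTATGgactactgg
IGHV2-4 with IGHJ1, Cre-, 27 UMIs: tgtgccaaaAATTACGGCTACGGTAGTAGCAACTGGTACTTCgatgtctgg
IGHV1-15 with IGHJ2, Cre-, 18 UMIs: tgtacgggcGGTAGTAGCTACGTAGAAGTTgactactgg

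The next in Cre+ were an IGHV1-82 chain of IgM with 35 UMIs beside an IGHV1-59 chain of IgA with 14, and an IGHV6-3 chain with 19 beside an IGHV1-85 chain with 14, both IgM, each barcode with 2 light chains. A further Cre+ barcode, left out of the 3 by its weaker major chain, tied with them at 14 UMIs on the minor chain, with an IGHV1-54 chain of 16 UMIs beside one of IGHV8-12, both IgD. In Cre- they were an IGHV1-42 chain with 27 UMIs beside an IGHV1-71 chain with 15, both IgM, and an IGHV3-6 chain of IgA with 33 beside an IGHV1-26 chain of IgM with 12. Both of these Cre- barcodes had exactly 1 light chain, IGKV1-117 with 86 UMIs and IGKV6-20 with 84. A minor chain of 10 or more UMIs was found in 12 Cre+ and 6 Cre- barcodes.

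Over all pairs of chains of a barcode, the IGHV gene was shared in 5 of 165 Cre+ pairs (3.03%) and 1 of 85 Cre- pairs (1.18%). The IGHJ gene, of which there are few, was shared in 38 Cre+ pairs (23.0%, 16.8 to 30.2) and 23 Cre- pairs (27.1%, 18.0 to 37.8). The IGHV and the IGHJ gene were both shared in 0 pairs, a count compatible with a share of at most 1.82% for Cre+ and at most 3.53% for Cre-. No pair of heavy chains occurred in a second barcode, with the same limits.

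A heavy chain with the same CDR3 nucleotides was found in a single-chain barcode of the same library for 29 of 145 Cre+ multi-chain barcodes (20%, 13.8 to 27.4) and 5 of 83 Cre- ones (6.02%, 1.98 to 13.5). The separation of these intervals depended on how a match was made. With chains matched at 85% CDR3 identity the shares were 24.1% (35 barcodes, 17.4 to 31.9) in Cre+ and 12.05% (10 barcodes, 5.93 to 21.0) in Cre-, with overlapping intervals. With a minimum of 3 UMIs per chain they were 9.01% (4.41 to 15.9) and 4.00% (0.833 to 11.2), which also overlapped. In single-chain barcodes a chain was found in another single-chain barcode for 4.61% in Cre+ (3.92 to 5.39) and 15.5% in Cre- (14.3 to 16.9). Outside the largest lineages this was 2.79% (2.25 to 3.41) and 1.62% (1.17 to 2.19). A multi-chain barcode had more than 1 chain that could match, so its share per barcode is raised beside that of single-chain barcodes. Counted by chain, 6.21% of major and 13.8% of minor chains recurred in Cre+, and 1.20% and 4.82% in Cre-. In no barcode did more than 1 chain recur in this way. Without the chains of the largest lineages, 14 of 131 Cre+ barcodes (10.7%, 5.97 to 17.3) and 2 of 80 Cre- barcodes (2.50%, 0.304 to 8.74) held a recurring chain. Of the single-chain barcodes of the other library, none held a chain of a Cre+ multi-chain barcode. The same CDR3 nucleotides as 1 Cre- chain, of IGHV1-61, were found there with another V gene, IGHV1-64.

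Recurring chains were mostly minor and weak in the Cre+ library. The minor chain recurred in 20 Cre+ barcodes (13.8%, 8.63 to 20.5) and 4 Cre- barcodes (4.82%, 1.33 to 11.9), and the major chain in 9 (6.21%) and 1 (1.20%). Of the 34 Cre+ barcodes with a minor chain of 2 UMIs, 16 had a recurring minor chain (47.1%, 29.8 to 64.9), beside 4 of 111 with a stronger minor chain (3.60%, 0.990 to 8.97). In Cre- the counts were 2 of 8 and 2 of 75.

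The number of light chains moved with the same split. At least 2 light chains were found in 2 of the 20 Cre+ barcodes with a recurring minor chain (10.0%, 1.23 to 31.7), in 7 of the 9 with a recurring major chain (77.8%, 39.99 to 97.2) and in 70 of the 116 with neither (60.3%, 50.8 to 69.3). By strength of the minor chain, they were found in 9 of 34 at 2 UMIs (26.5%, 12.9 to 44.4) and 70 of 111 at 3 or more (63.1%, 53.4 to 72.0). In Cre- the counts were 2 of 8 (25%, 3.19 to 65.1) and 51 of 75 (68.0%, 56.2 to 78.3). Both leading chains were unswitched in 5 of the 20 Cre+ barcodes with a recurring minor chain and 102 of the 116 without a recurring chain.

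The IGHV5-17 chain was that of the largest Cre+ lineage. It was found in 15 multi-chain barcodes (10.3%, 5.91 to 16.5), which hold more than 1 chain each, and 62 single-chain barcodes (1.88%, 1.45 to 2.41). In the multi-chain barcodes it had 2 UMIs in 10, and 3, 5, 5, 9 and 15 UMIs in the others. It was the minor chain in 12 of the 15, and each of those 12 barcodes had exactly 1 light chain. Alone, the chain had a median of 8 UMIs (interquartile range 4 to 12), and the strongest barcodes had 859, 703 and 31. Its usual light chain, an IGKV4-72 chain with the same CDR3 in 48 of the 62 single-chain barcodes, was found in 3 of the 3 barcodes where it was the major chain and in 0 of the 12 where it was the minor one. The same light chain occurred in 1 of the other 130 multi-chain and 45 of the other 3232 single-chain barcodes of the library.

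The constant gene of this chain was IgA in 53 of the 62 single-chain barcodes, with 5 IgM, 1 IgD and 1 IgG1. Beside another heavy chain it was IgA in 9, IgM in 3 and IgD in 3. In 6 of the 15 it carried the same constant gene as the other chain, among them all 3 IgD calls. The other leading chains were of V genes such as IGHV1-80, IGHV1-82, IGHV8-8 and IGHV10-1, with 2 to 10 UMIs.

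The first IGHV1-9 form, of an IgG1 lineage, stood beside other chains at higher UMIs. It was found in 5 multi-chain barcodes with 6, 8, 10, 11 and 25 UMIs, and in 16 single-chain barcodes with a median of 16.5 UMIs (range 2 to 36). It was IgG1 in all 5, beside IgD, IgM, IgM, IgG1 and IgD chains of 7, 30, 8, 3 and 11 UMIs. Its usual light chain, of IGKV1-110, was found in all 16 single-chain barcodes and in 4 of the 5 multi-chain barcodes, and those 4 had 2 or more light chains. The second form was found in 1 multi-chain barcode, with 2 UMIs beside an IgA chain of 4 UMIs, and its IGKV1-110 light chain was there among 3 light chains.

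The IGHV1-18 chain was found in more multi-chain than single-chain barcodes, 4 and 3. It had 2 UMIs and the IgG2b constant gene in each of the 4, beside IgM or IgD chains of 3, 3, 8 and 9 UMIs, and each of these barcodes had 1 light chain. Alone, it had 8, 8 and 1 UMIs, and was IgM in 2 barcodes and IgG2b in 1. The IGHV1-12 chain with IGHJ4, of IgG1, had 6 UMIs in 1 multi-chain barcode with an IgM chain of 3 UMIs and 2 light chains, and 24 and 8 UMIs alone.

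The IGHV4-1 chain was that of the largest Cre- lineage. It made up 417 single-chain barcodes of the Cre- library (14.2%, 12.9 to 15.5) and was found in 3 multi-chain barcodes (3.61%, 0.752 to 10.2), which hold more than 1 chain each. Of all barcodes with it, 3 of 420 were multi-chain (0.714%, 0.148 to 2.07), beside 15 of 77 for IGHV5-17 (19.5%, 11.3 to 30.1) and 5 of 21 for the first IGHV1-9 form (23.8%, 8.22 to 47.2). Over all heavy-chain barcodes the shares were 4.22% in Cre+ and 2.74% in Cre-. Only chains found in multi-chain barcodes were named, which raises the shares of named chains by construction. The IGHV4-1 chain was the minor chain in all 3, with 2, 2 and 11 UMIs and IgA, beside IgM chains of 4, 9 and 13 UMIs. Each had exactly 1 light chain, and its usual light chain, found in 390 of the 417 single-chain barcodes, was in 0 of the 3. The IGHV1-12 chain with IGHJ2, of IgA, had 4 UMIs beside an IgM chain of 5 UMIs in 1 barcode with 2 light chains, with IGKV14-111 among them. That is the light V gene of all 3 single-chain barcodes with the heavy chain, but the light CDR3 was not the usual one.

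**Figure D5:**
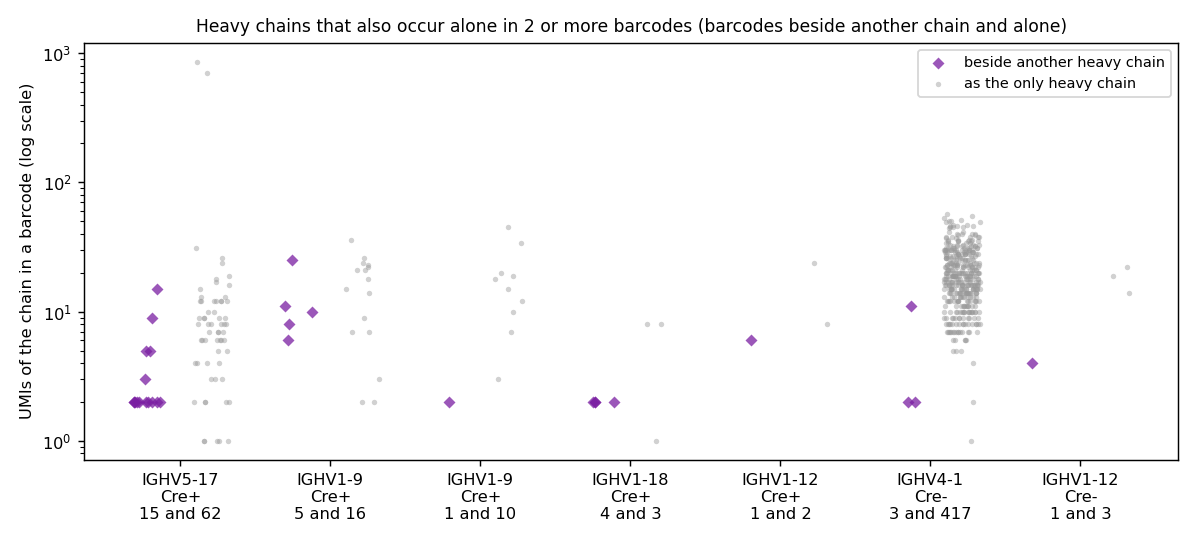
UMIs of each recurring chain (vertical, log scale) in multi-chain barcodes (purple diamonds) and in single-chain barcodes (grey points) for the 7 chains shown by sequence, with the numbers of barcodes under each name; points are spread sideways for legibility. The IGHV5-17 and IGHV1-18 chains lie mostly at 2 UMIs beside another chain, while the first IGHV1-9 form lies at 6 to 25.

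Chains of single-chain barcodes with many transcripts were looked for in multi-chain barcodes. Of the 37 Cre+ single-chain barcodes with 100 or more heavy UMIs (median 612, highest 4753), 2 held a chain found in a multi-chain barcode, both with the IGHV5-17 chain (5.41%, 0.661 to 18.2). Over all Cre+ single-chain barcodes the number was 96 of 3294 (2.91%, 2.37 to 3.55), within that interval. Of the 27 such barcodes of the Cre- library (median 989, highest 7068) the number was 0, which allows a share of up to 11.1%. Over all Cre- single-chain barcodes it was 421 of 2947 (14.3%, 13.0 to 15.6), of which 417 had the IGHV4-1 chain. The libraries had 10 barcodes in common, of which 1 was multi-chain in Cre+ and 1, a different one, in Cre-.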

How the data were processed

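Cell Ranger and the build GRCm38 are listed in the submitters' processing notes, with no version in the sources used here. The deposited contig tables give, per the file headers, raw counts of reads and UMIs per contig of called cells, and the clonotype tables counts of barcodes. No value was normalised, no doublet caller was run and gene expression is not used here. The members and the lists used here were chosen with earlier results of these data known.

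Heavy chains were productive IGH contigs with distinct CDR3 nucleotides, ranked in a barcode by UMIs, then reads. Light chains were productive IGK and IGL contigs. A largest lineage joined single-chain barcodes of the same V gene, J gene and CDR3 length by single linkage at 85% identity. Chains were named where found in 2 or more single-chain barcodes (at most 8 per library). Also named were the 3 strongest minor chains per library (ties broken by the UMIs of the major chain) and barcodes with 3 heavy chains. The 5 IGHV genes with the most chains in multi-chain barcodes were named too. With 1 library per genotype no test was made and shares have exact intervals. A share of 0 is limited at 3 counts of the total. Coordinates of 22 of 22 names came from a RefSeq table of GRCm38.p6. Python 3.11.15, pandas 2.3.3 and scipy 1.17.1 were used, and the counting was tested on simulated data.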

Additional observations from a re-analysis of the deposited data

Results flagged for a closer look

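T cell receptor contigs, which lie outside the heavy and light chains used here, were found in 7 of 145 Cre+ multi-chain barcodes (4.83%, 1.96 to 9.69), above the 1 of 83 in the Cre- library (1.20%, 0.0305 to 6.53), with overlapping intervals. None was productive in either library. In single-chain barcodes they were found in 3.95% of the Cre+ library (3.31 to 4.67) and 2.48% of the Cre- library (1.95 to 3.10). The difference was not tested.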

How the results depend on the processing

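Of 80 values of 10 shares under alternatives, 71 stayed within the interval of the reported value and 9 did not. A minimum of 3 UMIs per heavy chain moved 4 Cre+ shares, to 3.47% for multi-chain barcodes, 63.1% with 2 or more light chains, 84.7% with both chains unswitched and 9.01% with a recurring chain. Leaving out the largest lineages gave 10.7% with a recurring chain in Cre+. A UMI ratio of 0.25 in place of 0.5 was reached in 91.0% of Cre+ and 89.2% of Cre- barcodes, as a lower threshold must. Set against the other library, 0% of Cre+ and 1.20% of Cre- barcodes held a recurring chain. No paired analysis was possible because each genotype had 1 library. Few UMIs per chain and the floor of 0.2 on the heavy UMI ratio limit what can be seen of weak second chains, and pooling of mice before loading hides differences between animals.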

Other observations

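The 5 IGHV genes with the most chains in multi-chain barcodes of both libraries were IGHV5-17, IGHV1-9, IGHV1-26, IGHV3-6 and IGHV8-12. They were picked by this count, which raises their shares in multi-chain beside single-chain barcodes by construction. IGHV5-17 made up 25 of 300 chains in Cre+ multi-chain barcodes (8.33%, 5.47 to 12.1) and 4.13% of single-chain barcodes (3.48 to 4.87), without overlap of the intervals and with 15 of the 25 from the chain described above. In Cre- it was at 2.40% (0.656 to 6.02) and 2.17%. IGHV8-12 was at 3.33% (1.61 to 6.04) and 1.55% (1.15 to 2.03) in Cre+ and at 4.19% (1.7 to 8.45) and 1.32% (0.943 to 1.80) in Cre-, higher in multi-chain barcodes of both libraries but with overlapping intervals. IGHV1-9 was at 4.33% (2.33 to 7.30) and 3.31% (2.72 to 3.98) in Cre+ and at 4.79% (2.09 to 9.22) and 1.90% (1.44 to 2.46) in Cre-, also higher in multi-chain barcodes of both with overlapping intervals. Of its 13 chains in Cre+ multi-chain barcodes, 5 were the first recurring form and 1 the second. IGHV3-6 was at 4.00% and 3.31% in Cre+ and at 4.19% and 3.46% in Cre-. IGHV1-26 was at 4.33% and 6.62% in Cre+ and at 4.19% and 5.12% in Cre-. The intervals of each IGHJ gene overlapped between multi-chain and single-chain barcodes in both libraries. The CDR3 had a median of 14 codons in major, minor and lone chains of Cre+, and of 15, 14 and 14 in Cre-.

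In the authors' deposited clonotype tables each multi-chain barcode was a clonotype of its own, 145 of 3558 clonotypes in Cre+ and 83 of 2746 in Cre-. The 15 Cre+ barcodes with the IGHV5-17 chain beside another were thus not counted under any clonotype of that chain alone.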
